A study of Mus musculus with 8 samples.

Results

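The comparison described here is the maturation of the wild-type mouse heart muscle cell, and it set 2 libraries of adult cardiomyocytes against 2 libraries of cardiomyocytes from embryos at e13.5 (an embryonic day of midgestation). These are 4 of the 8 libraries of the series, taken by the column names of the deposited count table. All 4 carried the labels wild type (WT), strain C57BL/6 and cell type cardiomyocyte, and each was made from 200 ng of total RNA. The labels give neither the adults' age, nor how the cells were isolated, nor whether both libraries of an age stem from different animals. A p-value here therefore speaks only of library-to-library spread, which may be technical. The other 4 libraries, from LncSync-null mice (KO) of the same strain and ages, entered only to estimate the spread and to compare the age effect between genotypes. Of 51826 genes in the table, 16623 passed the filter on low counts and were tested.

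Between midgestation and adulthood the heart muscle cell leaves the cell cycle, enlarges, and builds a dense contractile lattice with a system of transverse tubules that couples each action potential to calcium release. Its fuel moves from glucose and lactate to fatty acids, which are burned in abundant mitochondria, and many contractile and metabolic proteins are exchanged for adult paralogs encoded by other genes. Thyroid hormone, glucocorticoids and nuclear receptors of the ERR and PPAR families are known to drive parts of this change.

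The WT libraries held 20395600 and 20202970 counts at e13.5 and 19760351 and 17159009 counts in adults, where 3 counts in 1 library correspond to 0.103 to 0.207 CPM (counts relative to the scaled library size). A fold change against an age at 0 is a bound computed with 3 counts over both libraries of that age. Values are given as replicate 1 and replicate 2 of each age, fold changes (log2 FC) are log2 of adult over e13.5 with their standard error after ±, and p-values are from edgeR's quasi-likelihood test with Benjamini-Hochberg adjustment over all 16623 genes. The adult pair correlated with r = 0.978 across genes (genes are no replicates), the e13.5 pair with r = 0.913, and pairs of different age with r = 0.648 to 0.725. Genes of the mitochondrial genome took 4.18% and 4.36% of the counts at e13.5 and 22.6% and 28.1% in adults. Ribosomal RNA genes took 8.58% and 5.58% at e13.5 and 0.067% and 0.083% in adults, and the part of this difference in the results was not tested. The e13.5 libraries differed from each other by transcript length. Protein-coding genes were cut into 5 classes of equal size by transcript length. In the class with the shortest transcripts, e13.5 replicate 1 lay above replicate 2 by a median log2 of 0.70, and in the class with the longest it lay at -1.10. The adult libraries differed by 0.06 and 0.11 in the same classes. Over the classes the median fold change with age went from -0.94 to 0.64, so the counts of each list of processes below are also given with an offset for transcript length, an alternative added after the data were seen.

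**Figure D1:**
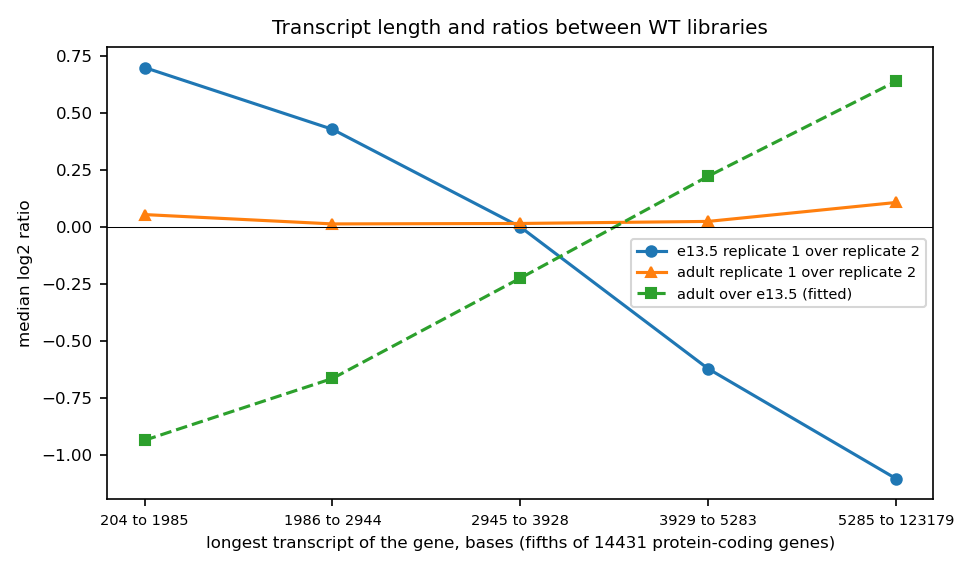
Median log2 ratio (y axis) over 5 classes of protein-coding genes by the length of their longest transcript in bases (x axis), for replicate 1 over replicate 2 at each age and for the fitted adult over e13.5 change. The e13.5 replicate ratio falls from 0.70 to -1.10 along the axis and the age change rises from -0.94 to 0.64, while the adult replicate ratio stays between 0.01 and 0.11.

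The cell type label was checked against its markers. The 12 cardiomyocyte markers summed to 30580 and 24500 CPM at e13.5 and 86030 and 86090 CPM in adults. Ryr2, Pln, Myh6 and Mybpc3 were among them, all 12 had counts in all 4 libraries, and 4 rose and 1 fell with age. Markers of other cells were present as well. Red blood cell markers summed to 43950 and 20280 CPM at e13.5 and 109 and 142 CPM in adults, and embryonic globins were at 0 in adults. Fibroblast markers summed to 1555 and 4135 CPM at e13.5 and 1738 and 994 CPM in adults, endothelial markers to 1143 and 1465 CPM at e13.5 and 2782 and 2070 CPM in adults and smooth muscle and pericyte markers to 3664 and 1975 CPM at e13.5 and 3058 and 2563 CPM in adults. In bulk RNA fewer cells of a type and less RNA per cell cannot be told apart, and the part of these cells in the results below was not tested. Sex-linked genes differed with age as well: Xist, transcribed from the inactive X chromosome of female cells, had 12.8 and 81.8 CPM at e13.5 and 0 and 0.207 CPM in adults. The Y-linked Uty had 2.40 and 6.47 CPM at e13.5 and 23.6 and 26.1 CPM in adults. Each e13.5 library thus held both Xist and Uty RNA. Of 5 sex-linked genes 2 rose and 1 fell. The Y-linked Ddx3y (log2 FC 2.03, adjusted p = 0.0541) and Eif2s3y (log2 FC 1.27, adjusted p = 0.110) did not pass. Sex and age cannot be told apart.

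Between e13.5 and the adult, 38.9% of the genes tested changed. Of 16623 genes, 2954 (17.8%) were higher in adults and 3509 (21.1%) were lower, at an adjusted p below 0.05. The change was large in most of them: 1445 rose and 1790 fell by at least 8-fold, no called gene changed by less than 2-fold, and the median size among called genes was 3.001 on the log2 scale. The WT libraries of the 2 ages did not overlap in 75.8% of all genes tested and in 6461 of the 6463 called genes. Absence of overlap in a called gene below therefore adds little to its call. The median fold change over all genes tested was -0.26, and the lists below are read beside that value and beside the 17.8% and 21.1%. Protein-coding genes made up 2707 of the risen and 3085 of the fallen genes, and of 1214 long noncoding genes 153 rose and 221 fell. Of the 295 genes chosen for naming by a rule of rank, 21 have a near-identical copy elsewhere in the annotation, among them Pln, Ankrd23, Eef1a1, Eno1, Hba-a1, Hspa1b, Hspb1, Ly6c1, Rpl27, Rplp0 and mt-Co1, so their counts could be split between copies and are uncertain. Another gene shares at least 20% of the exon bases of 16 named genes, among them Ankrd23 (78.2%), Tagln (67.9%), Bmp5 (46.7%), Kif20a (29.3%), Rpl5 (26.7%), Ccn2 (23.2%), Mest (23.1%), Ube2c (22.8%) and Ptbp1 (20.7%), and reads of such overlapping genes cannot be told apart. With 1 adult library left out fewer genes passed, 1734 higher and 1256 lower without replicate 1 and 1844 and 1157 without replicate 2. With the length offset 3512 rose and 3394 fell, 5609 of the 6463 calls were shared and no shared call changed direction. Of the named genes, 60 missed the threshold without adult replicate 1 and 54 without adult replicate 2, and those with a test below are named at the end of their paragraph with the range of their log2 FC over all alternatives.

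The plot of list members gives the fold changes of the 27 lists of processes that follow.

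**Figure D2:**
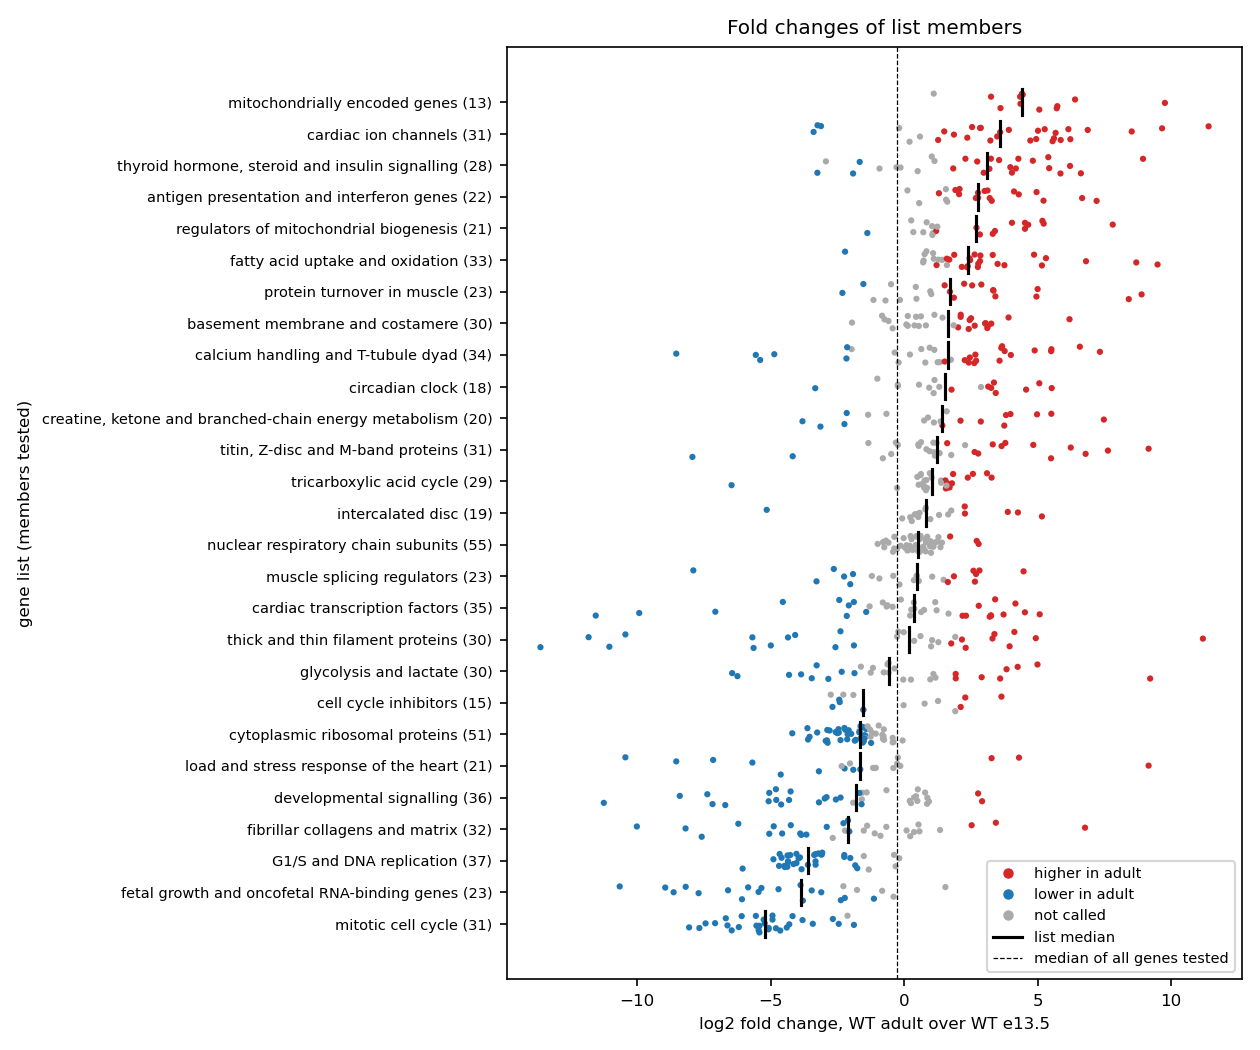
Log2 fold change of WT adult over WT e13.5 (x axis) for each tested member of 27 gene lists (y axis, number tested in parentheses), coloured by the test; the thick bar is the list's median and the dashed line the median of all genes tested, -0.26. List medians run from -5.23 for the mitotic cell cycle to 4.42 for mitochondrially encoded genes.

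The largest rises with age, among genes with a mean of at least 20 CPM in adults, were in genes at or near 0 in the embryo. Cebpb, a bZIP transcription factor (chromosome 2, 167688915 to 167690418 in GRCm38), had no count at e13.5 and 70.96 and 131 CPM in adults (at least 1668-fold higher, adjusted p = 0.000213). Its exons overlap another gene over 20.7% of their bases. Fbp2, the muscle fructose bisphosphatase (chromosome 13, 62836877 to 62858422), was likewise at 0 in the embryo and at 21.5 and 27.7 CPM in adults (at least 412-fold higher, adjusted p = 0.000252). Clec3b, which encodes the plasminogen-binding protein tetranectin, went from 0 to 30.3 and 14.7 CPM (at least 391-fold higher, adjusted p = 0.000465). Mylk4, a myosin light chain kinase family member, had 0.0922 and 0.207 CPM at e13.5 and 341 and 413 CPM in adults (log2 FC 11.19 ± 0.73, adjusted p = 0.000169). Eef1a2, the muscle and neuron form of a translation elongation factor, had 0.922 and 1.27 CPM at e13.5 and 1274 and 958 CPM in adults (log2 FC 9.97 ± 0.67, adjusted p = 0.000169). Plin4 and Plin5 encode lipid droplet coat proteins. Plin4 had 0.0922 and 0.930 CPM at e13.5 and 426 and 532 CPM in adults (log2 FC 9.80 ± 1.06, adjusted p = 0.000329). Plin5 had 0.138 and 0.241 CPM at e13.5 and 130.4 and 158 CPM in adults (log2 FC 9.49 ± 0.71, adjusted p = 0.000169). Hcn2, a pacemaker current channel, had 0 and 0.0689 CPM at e13.5 and 34.7 and 38.4 CPM in adults (ratio of scaled counts, adult over e13.5, 924, 95% counting interval 255 to 7636, adjusted p = 0.000265). The remaining genes of this group were the macrophage scavenger receptor Cd163, the adhesion protein Vtn, the dipeptidase-family gene Pm20d2 and mt-Nd4l, with adult levels of 34.7 and 23.7, 24.8 and 16.3, 40.2 and 38.9 and 2084 and 1747 CPM. mt-Nd4l has a near-identical copy, Gm10222, so its counts are uncertain. Its log2 FC was 9.77, against a median of 4.42 over the 13 protein genes of the mitochondrial genome.

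Embryonic globins and contractile genes were among the largest falls. Of the contractile genes, Myl7, Myl4 and Mybphl are also on the list of atrial markers. The labels do not say whether atria or ventricles were taken, so atrial content and age cannot be told apart for these genes. Hbb-y, Hba-x and Hbb-bh1, globins of the yolk sac red cell lineage, had 12990 and 4842, 1758 and 679.7 and 134 and 45.9 CPM at e13.5 and no count in adults (at least 87990-fold lower, adjusted p = 0.000555 for Hbb-y). Tnni1, the slow skeletal troponin I that the fetal heart uses (chromosome 1, 135779434 to 135810989), had 2829 and 1366 CPM at e13.5 and 0.116 and 0.207 CPM in adults (log2 FC -13.63 ± 1.01, adjusted p = 0.000169). Myl7 and Myl4 encode the atrial light chains of myosin. Myl7 had 4433 and 859.9 CPM at e13.5 and 1.34 and 0.0689 CPM in adults (log2 FC -11.83 ± 1.48, adjusted p = 0.000507). Myl4 had 5934 and 1847 CPM at e13.5 and 1.80 and 1.86 CPM in adults (log2 FC -11.05 ± 1.01, adjusted p = 0.000224). Igf2bp1, an oncofetal RNA-binding protein (chromosome 11, 95957163 to 96005940), was at nearly the same level in both embryonic libraries, with 160.2 and 169 CPM at e13.5 and 0.0582 and 0.138 CPM in adults (ratio of scaled counts, e13.5 over adult, 1748, 95% counting interval 598 to 8479, adjusted p = 0.000169). The cartilage collagens Col2a1 and Col9a1 had 4.75 and 54.9 and 14.2 and 32.7 CPM at e13.5 and no count in adults, with the lower level in replicate 1 for both. Gap43, a growth cone protein of neurons, went from 23.2 and 19.7 CPM to 0 (at least 224-fold lower, adjusted p = 0.000265). Hist1h2ap, a replication-dependent histone gene with 12 near-identical copies, had 707 and 294 CPM at e13.5 and 0 and 0.207 CPM in adults, and Mybphl, a relative of myosin binding protein C found in atria, had 163 and 31.9 CPM at e13.5 and 0.0582 and 0.0689 CPM in adults.

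**Figure D3:**
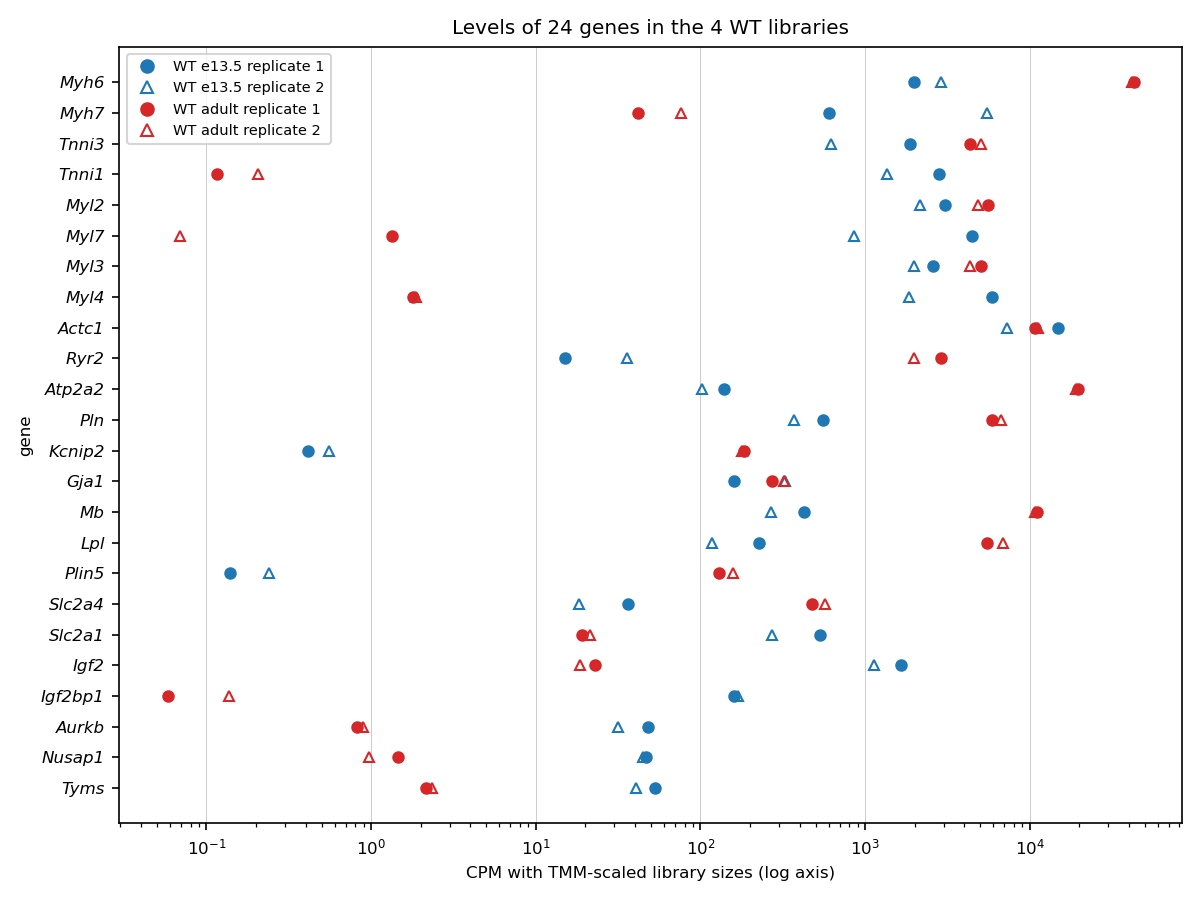
CPM on a log axis (x axis) of 24 genes (y axis) in each WT library, with circles for replicate 1 and open triangles for replicate 2. Adult libraries lie close together, for example at 42760 and 41920 CPM for Myh6, while the embryonic libraries spread further, as for Myh7 at 602 and 5482 CPM.

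Thick and thin filament genes moved both ways. Of 30 tested, 9 rose and 12 fell (median 0.18). Myh6, the fast alpha myosin heavy chain of the adult mouse ventricle (chromosome 14, 54941921 to 54966927), had 1971 and 2870 CPM at e13.5 and 42760 and 41920 CPM in adults (log2 FC 4.13 ± 0.64, adjusted p = 0.00129). Its neighbour Myh7, the slow beta chain (chromosome 14, 54970684 to 54994626), had 602 and 5482 CPM at e13.5 and 41.97 and 75.96 CPM in adults (log2 FC -5.69 ± 1.03, adjusted p = 0.00273). The embryonic libraries stood far apart in Myh7, with replicate 2 the higher, yet both lay above both adults. The KO libraries had 1000 and 922 CPM at e13.5 and 26.8 and 54.1 CPM in adults. Among regulators, Mybpc3, cardiac myosin binding protein C, rose (log2 FC 2.30 ± 0.66, adjusted p = 0.0221), as did its paralog Mybpc2 (log2 FC 3.38 ± 0.48, adjusted p = 0.000859) and the tropomodulin Tmod4, which caps thin filaments (log2 FC 4.93 ± 0.54, adjusted p = 0.00034). Tnnt1, slow troponin T, had 439 and 208 CPM at e13.5 and 11.1 and 9.16 CPM in adults and fell (log2 FC -4.998 ± 0.60, adjusted p = 0.000423), and the skeletal troponins Tnnt3 (ratio of scaled counts, e13.5 over adult, 51.5, 95% counting interval 14.04 to 429, adjusted p = 0.00653) and Tnni2 (log2 FC -2.39 ± 0.64, adjusted p = 0.0166, a call lost with the length offset) fell from lower levels. Several of the cell's structural mainstays did not pass. Actc1, cardiac actin, had 14920 and 7311 CPM at e13.5 and 10790 and 11190 CPM in adults, with the adults between the embryonic libraries (log2 FC -0.02 ± 0.66, adjusted p = 0.987). Tnnt2, cardiac troponin T, had 5512 and 2424 CPM at e13.5 and 5984 and 6139 CPM in adults (log2 FC 0.61 ± 0.64, adjusted p = 0.467). Myl2 had 3076 and 2145 CPM at e13.5 and 5611 and 4880 CPM in adults (log2 FC 1.01 ± 0.57, adjusted p = 0.183). Myl3 had 2590 and 1973 CPM at e13.5 and 5071 and 4351 CPM in adults (log2 FC 1.05 ± 0.55, adjusted p = 0.153). Tnni3, cardiac troponin I, had 1880 and 619 CPM at e13.5 and 4348 and 5064 CPM in adults, higher in both adults but short of the threshold (log2 FC 1.91 ± 0.72, adjusted p = 0.0585). Under the length offset 13 rose and 11 fell, and Tnni3, Myl2 and Myl3 then passed. Without adult replicate 2, 5 rose and 9 fell. Mybpc3 (1.98 to 3.01) missed the threshold without e13.5 replicate 1, adult replicate 1 or adult replicate 2. Tnnt3 (-6.17 to -4.61) missed the threshold without adult replicate 1. Tnni2 (-2.52 to -1.50) missed the threshold without adult replicate 1 or adult replicate 2.

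Proteins of titin, the Z-disc and the M-band moved mostly upward. Of 31 tested, 12 rose and 2 fell (median 1.22). Xirp2, an actin-binding repeat protein of the disc and Z-line, had 1.24 and 0.723 CPM at e13.5 and 596 and 527 CPM in adults (log2 FC 9.16 ± 0.82, adjusted p = 0.000216). Myom2, an M-band crosslinker of myosin, had 6.13 and 13.53 CPM at e13.5 and 1055 and 1138 CPM in adults (log2 FC 6.80 ± 0.70, adjusted p = 0.000278). Both genes were low in each embryonic library and high in each adult one. Myot, a Z-disc protein, rose from 0.184 and 0.138 to 30.8 and 34.99 CPM (log2 FC 7.63 ± 0.93, adjusted p = 0.00046) and Ankrd23, a titin-binding ankyrin protein, from 4.88 and 5.34 to 214 and 249.5 CPM (log2 FC 5.50 ± 0.47, adjusted p = 0.000213). The 2 that fell were Pdlim3, an actinin-associated LIM protein (214 and 156 CPM at e13.5 and 10.5 and 9.99 CPM in adults; log2 FC -4.18 ± 0.47, adjusted p = 0.000358), and Myoz1, the fast-muscle calsarcin (24.98 and 8.68 CPM at e13.5 and 0.116 and 0 CPM in adults; ratio of scaled counts, e13.5 over adult, 248, 95% counting interval 68.4 to 2051, adjusted p = 0.000708). Ttn itself, the giant elastic spring, had 331 and 1756 CPM at e13.5 and 4686 and 5461 CPM in adults and did not pass (log2 FC 2.28 ± 0.94, adjusted p = 0.0786), nor did the intermediate filament gene Des (log2 FC 1.15 ± 0.56, adjusted p = 0.127) or the small heat shock gene Hspb7 (log2 FC 1.11 ± 0.54, adjusted p = 0.128). With length as an offset 16 rose and 2 fell.

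Paralog exchange was read from 26 pairs of an early and a mature form, as the log2 ratio of mature to early form per kilobase of exon in each library. In 23 pairs the ratio was higher in both adult libraries than in both embryonic ones, in 2 the ages overlapped, in none was it lower in both adults, and for the deiodinases Dio3 and Dio2 it could not be computed because Dio3 had no count in adult replicate 2. In 11 pairs the mature form rose and the early form fell by the test. The pairs were chosen with earlier results of these data known, and the share among other gene pairs was not computed. Among all single genes tested, the WT libraries of the 2 ages did not overlap in 75.8%. A comparison of 2 against 2 libraries cannot go below p = 0.333 in an exact two-sided permutation test, so no p is given for a ratio. Troponin I shifted most. Its ratio of Tnni3 to Tnni1 was 0.21 and -0.34 at e13.5 and 15.99 and 15.39 in adults, a change of 15.75 ± 0.58 (SD of the difference over libraries). Per kilobase of all annotated exon bases of a gene, the embryo held the 2 forms in like amounts, and the adult almost only Tnni3. In CPM, without division by length, Tnni1 lay above Tnni3 at e13.5, at 2829 and 1366 against 1880 and 619. The regulatory light chain ratio of Myl2 to Myl7 went from -2.25 and -0.41 to 10.31 and 14.39, and the essential light chain ratio of Myl3 to Myl4 from -0.02 and 1.28 to 12.64 and 12.37. For myosin heavy chain the ratio of Myh6 to Myh7 was 2.07 and -0.58 in the embryo, on either side of equality, and 10.35 and 9.47 in adults. In these 3 pairs the early form fell, while the mature form rose by the test only for Myh6. The early forms Myl7, Myl4 and Gja5 are also atrial markers. The atrial list summed to 18150 and 4874 CPM at e13.5 and 113 and 89.9 CPM in adults. For their pairs, atrial content and paralog exchange cannot be told apart.

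The exchange reached the translation machinery. Rpl3l, the striated muscle paralog of ribosomal protein L3, had 0.830 and 0.585 CPM at e13.5 and 276 and 251 CPM in adults (log2 FC 8.54 ± 0.96, adjusted p = 0.000358) while Rpl3 had 1015 and 611 CPM at e13.5 and 126 and 94.2 CPM in adults (log2 FC -2.88 ± 0.50, adjusted p = 0.00215). The log2 ratio went from -9.31 and -9.08 to 2.08 and 2.36. For the elongation factor, Eef1a2 over Eef1a1 went from -12.35 and -11.39 to 0.97 and 1.10, the other large shift of this kind. Metabolic pairs moved the same way. For glucose transporters the ratio of Slc2a4 to Slc2a1 was -3.86 and -3.87 at e13.5 and 4.64 and 4.76 in adults. For pyruvate dehydrogenase kinases the ratio of Pdk4 to Pdk3 changed by 9.61 ± 1.14, for calsequestrin that of Casq2 to Casq1 by 7.26 ± 0.16 and for creatine kinase that of Ckm to Ckb by 5.98 ± 0.21. The muscle forms of cytochrome oxidase gained on their widespread forms by 5.56 ± 0.10 for Cox8b over Cox8a, 4.05 ± 0.52 for Cox6a2 over Cox6a1 and 3.71 ± 0.43 for Cox7a1 over Cox7a2. Glycolytic enzymes gave changes of 5.32 ± 0.42 for Eno3 over Eno1, 4.79 ± 0.20 for Pfkm over Pfkp, 4.67 ± 1.70 for Hk2 over Hk1 and 3.90 ± 0.52 for Pgam2 over Pgam1. The overlapping pairs were Actc1 over Acta1, cardiac over skeletal actin, and Cpt1b over Cpt1a, the muscle over the liver form of carnitine palmitoyltransferase, whose embryonic ratios were 5.66 and 2.62 against 4.60 and 4.99 in adults.

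**Figure D4:**
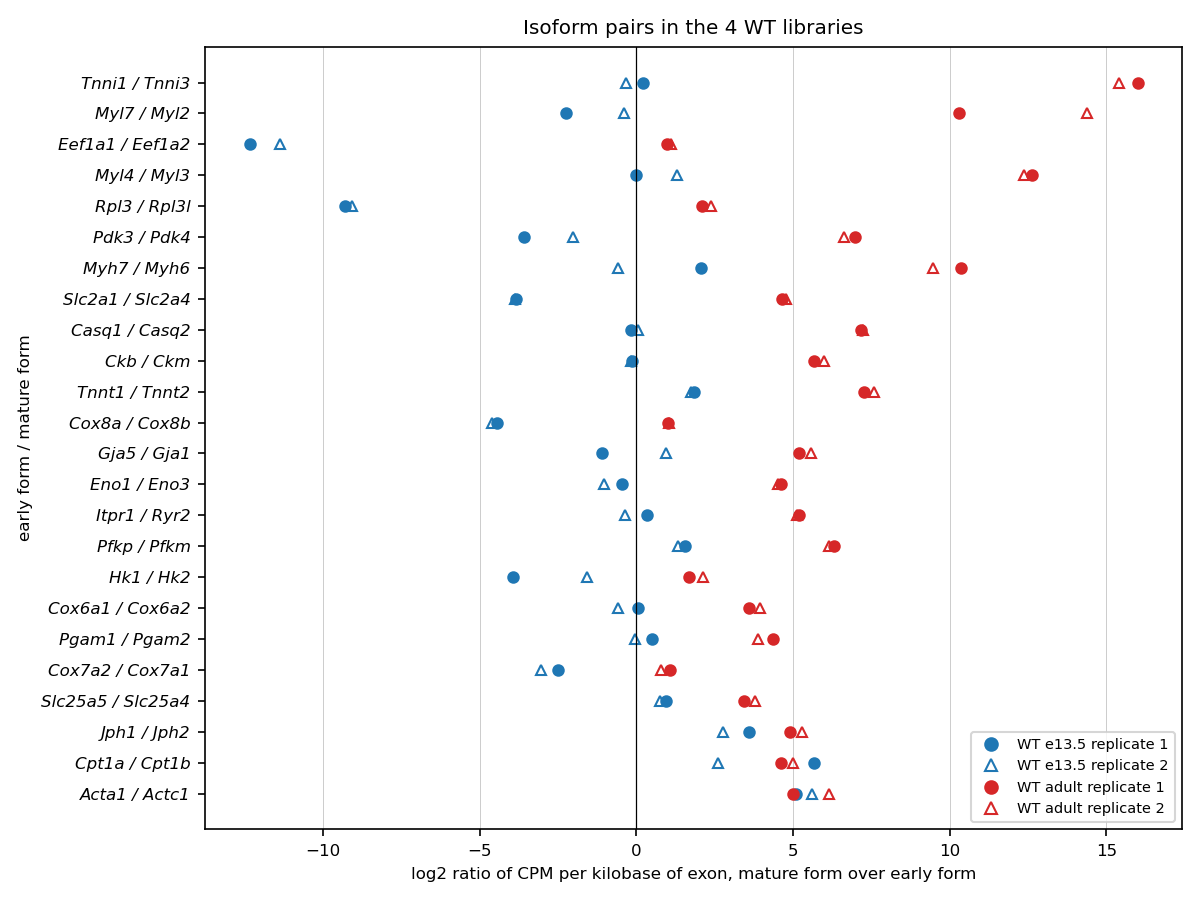
Log2 ratio of mature over early form, per kilobase of exon (x axis), in each WT library for 24 of the pairs (y axis, early form / mature form), ordered by the change with age. Adult points (red) lie to the right of both embryonic points (blue) in 22 of them, from Tnni1 / Tnni3 with a change of 15.75 at the top; Cpt1a / Cpt1b and Acta1 / Actc1 at the bottom overlap.

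Calcium handling genes moved mostly upward. Of 34 tested, 17 rose and 6 fell (median 1.63). Atp2a2, the sarcoplasmic reticulum calcium pump SERCA2 (chromosome 5, 122453513 to 122502225), had 139 and 102 CPM at e13.5 and 19740 and 19090 CPM in adults (log2 FC 7.33 ± 0.68, adjusted p = 0.000242). Ryr2, the release channel of the sarcoplasmic reticulum (chromosome 13, 11553102 to 12106945), had 15.1 and 35.7 CPM at e13.5 and 2886 and 1986 CPM in adults (log2 FC 6.58 ± 0.76, adjusted p = 0.000393). In both genes the embryonic and the adult libraries were far apart. Jph2, which tethers the transverse tubule to the reticulum, had 17.1 and 15.4 CPM at e13.5 and 782 and 707 CPM in adults (log2 FC 5.52 ± 0.50, adjusted p = 0.000223), its paralog Jph1 rose from 1.66 and 2.69 to 30.9 and 21.1 CPM (log2 FC 3.57 ± 0.51, adjusted p = 0.000911), and Hrc, a calcium buffer of the reticulum lumen, rose from 53.9 and 26.03 to 1334 and 1035 CPM (log2 FC 4.89 ± 0.62, adjusted p = 0.000534). Pln, the inhibitor of the pump, had 558 and 368 CPM at e13.5 and 5883 and 6693 CPM in adults (log2 FC 3.76 ± 0.62, adjusted p = 0.00171), but it shares 64.7% of its exon bases with another gene. Sln, the pump's atrial inhibitor, had 121 and 21.4 CPM at e13.5 and 0.349 and 0 CPM in adults (log2 FC -8.54 ± 1.30, adjusted p = 0.0016). Casq1, skeletal calsequestrin, had 383 and 127 CPM at e13.5 and 5.30 and 5.51 CPM in adults (log2 FC -5.56 ± 0.82, adjusted p = 0.001). Casq2, the cardiac form, had 479 and 184 CPM at e13.5 and 1073 and 1159 CPM in adults (log2 FC 1.75 ± 0.66, adjusted p = 0.0601). Ppp1r1a, a phosphatase inhibitor (log2 FC -4.87 ± 0.54, adjusted p = 0.000353), and Fkbp1b, which binds the ryanodine receptor (ratio of scaled counts, e13.5 over adult, 44.1, 95% counting interval 14.9 to 216, adjusted p = 0.00797), also fell. The IP3 receptor gene Itpr1 did not pass (log2 FC 1.25 ± 0.59, adjusted p = 0.116). When length was an offset, 18 rose and 7 fell, and without adult replicate 2, 13 rose and 3 fell. Fkbp1b (-9.34 to -4.50) missed the threshold without adult replicate 2.

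Most ion channel genes rose. Of 31 tested, 25 rose and 3 fell (median 3.60). Kcnip2, the subunit that sets the transient outward current, had 0.415 and 0.551 CPM at e13.5 and 184 and 179.7 CPM in adults (log2 FC 8.53 ± 0.58, adjusted p = 0.000169). Scn4a, the skeletal muscle sodium channel, had 0.599 and 0.654 CPM at e13.5 and 56.9 and 38.02 CPM in adults (log2 FC 6.23 ± 0.56, adjusted p = 0.000216). In each the embryonic libraries were low and close together. Among the 3 that fell were Kcne1, the beta subunit of the slow delayed rectifier (33.6 and 38.02 CPM at e13.5 and 2.68 and 4.13 CPM in adults; log2 FC -3.40 ± 0.47, adjusted p = 0.000731), and Kcna4, a transient potassium channel (4.15 and 12.3 CPM at e13.5 and 0.699 and 1.03 CPM in adults; log2 FC -3.25 ± 0.72, adjusted p = 0.00718). Given the offset for length, 24 rose and 3 fell. Kcna4 (-3.69 to -2.23) missed the threshold without adult replicate 1.

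At the intercalated disc, where neighbouring myocytes are joined, 5 of 19 genes rose and 1 fell (median 0.81). Dsp, desmoplakin, had 21.8 and 65.3 CPM at e13.5 and 1785 and 1333 CPM in adults (log2 FC 5.16 ± 0.68, adjusted p = 0.000594). Dsg2, desmoglein 2, had 4.38 and 9.33 CPM at e13.5 and 129.6 and 134 CPM in adults (log2 FC 4.26 ± 0.56, adjusted p = 0.000591). Nrap, a myofibril anchor of the disc, had 36.04 and 60.2 CPM at e13.5 and 784 and 636 CPM in adults (log2 FC 3.88 ± 0.50, adjusted p = 0.00056). Gja1, the ventricular connexin 43, was at 160.4 and 328 CPM at e13.5 and 273 and 322 CPM in adults and did not pass (log2 FC 0.29 ± 0.47, adjusted p = 0.651), as was the case for alpha-catenin Ctnna1 (log2 FC 0.98 ± 0.50, adjusted p = 0.141). Gja5, the connexin of atria and the conduction system, had 191 and 95.5 CPM at e13.5 and 4.25 and 3.79 CPM in adults and fell (log2 FC -5.15 ± 0.66, adjusted p = 0.00055). Length as an offset gave 7 rose and 1 fell. Without e13.5 replicate 2, 9 of the list rose, and without adult replicate 2, 3 did.

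Most genes of fatty acid uptake and oxidation rose. Of 33 tested, 23 rose and 1 fell (median 2.38). Lpl, the lipase that frees fatty acids from lipoproteins (chromosome 8, 68880491 to 68907448), had 226 and 118 CPM at e13.5 and 5464 and 6840 CPM in adults (log2 FC 5.16 ± 0.71, adjusted p = 0.000728). Acsl1, which activates fatty acids to their CoA esters, had 19.5 and 34.8 CPM at e13.5 and 1088 and 1071 CPM in adults (log2 FC 5.31 ± 0.62, adjusted p = 0.00041). Fabp3, the heart's fatty acid binding protein, had 525 and 273 CPM at e13.5 and 3302 and 2480 CPM in adults (log2 FC 2.86 ± 0.63, adjusted p = 0.00674). Both adult libraries lay above both embryonic ones in each. Mlycd, malonyl-CoA decarboxylase, which relieves the block on fatty acid import, had 1.06 and 1.07 CPM at e13.5 and 128 and 113 CPM in adults (log2 FC 6.81 ± 0.53, adjusted p = 0.000187). Ucp3, a mitochondrial carrier of the uncoupling family, had 0.0922 and 0.0689 CPM at e13.5 and 37.1 and 34.1 CPM in adults (log2 FC 8.70 ± 0.79, adjusted p = 0.000223). The member that fell was its relative Ucp2 (241 and 145 CPM at e13.5 and 48.2 and 34.8 CPM in adults; log2 FC -2.22 ± 0.62, adjusted p = 0.0203). The gate enzyme of import did not pass: Cpt1b had 305 and 137 CPM at e13.5 and 641 and 699.9 CPM in adults (log2 FC 1.60 ± 0.59, adjusted p = 0.0556). Cpt1a had 13.6 and 50.7 CPM at e13.5 and 59.7 and 49.8 CPM in adults (log2 FC 0.77 ± 0.78, adjusted p = 0.455). Fabp4, which also marks endothelium and fat, rose (log2 FC 2.38 ± 0.52, adjusted p = 0.00653). With the length offset 28 rose and 1 fell, Cpt1b among them. Ucp2 (-2.52 to -1.67) missed the threshold without e13.5 replicate 1, adult replicate 1 or adult replicate 2. Fabp4 (2.03 to 2.82) missed the threshold without adult replicate 1.

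Genes of the tricarboxylic acid cycle and pyruvate oxidation gave 11 risen and 1 fallen of 29 (median 1.03). Ogdh, of the 2-oxoglutarate dehydrogenase complex, had 184 and 295 CPM at e13.5 and 2610 and 2027 CPM in adults (log2 FC 3.27 ± 0.52, adjusted p = 0.00142). Pdha1, of pyruvate dehydrogenase, had 256 and 221 CPM at e13.5 and 1400 and 1441 CPM in adults (log2 FC 2.57 ± 0.47, adjusted p = 0.0028). Got1, an aspartate transaminase of the malate shuttle, had 230.0 and 124 CPM at e13.5 and 958 and 890.0 CPM in adults (log2 FC 2.38 ± 0.57, adjusted p = 0.00971). The single fall was Pdk3, a kinase that switches pyruvate dehydrogenase off, with 161 and 94.97 CPM at e13.5 and 1.16 and 1.72 CPM in adults (log2 FC -6.47 ± 0.67, adjusted p = 0.000278). Pdk4, the kinase induced by fasting and fatty acids, rose (log2 FC 3.10 ± 0.69, adjusted p = 0.00716). Idh2, with 2595 and 1287 CPM at e13.5 and 1460 and 1773 CPM in adults, did not pass (log2 FC -0.26 ± 0.59, adjusted p = 0.747). The count moved with the setting: with the length offset 19 rose and 1 fell, without e13.5 replicate 2, 6 rose, and without adult replicate 1 or 2, 3 and 4 rose. Got1 (2.03 to 3.08) missed the threshold without adult replicate 1.

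The 2 genomes that encode the respiratory chain moved by different amounts. Of 13 protein genes of the mitochondrial genome 12 rose and 0 fell (median 4.42). mt-Co1 and mt-Cytb belong to complexes IV and III. mt-Co1 had 5794 and 5133 CPM at e13.5 and 99570 and 133600 CPM in adults (log2 FC 4.42 ± 0.67, adjusted p = 0.00113). mt-Cytb had 2779 and 2742 CPM at e13.5 and 31450 and 35900 CPM in adults (log2 FC 3.61 ± 0.60, adjusted p = 0.00179). mt-Nd2 had 185 and 185 CPM at e13.5 and 13890 and 17420 CPM in adults (log2 FC 6.40 ± 0.64, adjusted p = 0.000265) and mt-Nd6, on the other strand, 36.8 and 78.8 CPM at e13.5 and 1575 and 2293 CPM in adults (log2 FC 5.06 ± 0.60, adjusted p = 0.000422). In none of these did the ages overlap, as in 6461 of all 6463 called genes. Length as an offset gave 13 rose and 0 fell (median 5.39). The 55 subunits encoded in the nucleus had a median of 0.51, above the -0.26 of all genes, and 3 rose and 0 fell. This share of 5.45% was under the 17.8% of all genes in the reported fit, but not under the length offset below. Those 3 were the muscle subunits of cytochrome oxidase, Cox6a2 (414 and 156 CPM at e13.5 and 1045 and 835 CPM in adults; log2 FC 1.72 ± 0.60, adjusted p = 0.0463), Cox7a1 (46.7 and 15.7 CPM at e13.5 and 250 and 161 CPM in adults; log2 FC 2.72 ± 0.68, adjusted p = 0.0123) and Cox8b (24.3 and 10.6 CPM at e13.5 and 130.2 and 110.5 CPM in adults; log2 FC 2.79 ± 0.59, adjusted p = 0.0057). Atp5a1 and Atp5b, the catalytic core of ATP synthase, had log2 fold changes of 1.10 ± 0.57 and 0.23 ± 0.62 and did not pass. These nuclear transcripts are short, with a median of 1141 bases for the longest transcript, and e13.5 replicate 1 held them at 31980 CPM in sum against 15050 CPM in replicate 2 and 37440 and 32940 CPM in adults. Under the length offset 29 of the 55 rose and 0 fell (median 1.32), beside 3512 risen of all 16623 genes and their median of -0.12. Without e13.5 replicate 1 the median was 1.28 with 4 risen, and without replicate 2 it was 0.02 with 2 risen. The part of transcript length in the age effect was not tested beyond these alternatives. Cox6a2 (1.20 to 2.78) missed the threshold without e13.5 replicate 2, adult replicate 1 or adult replicate 2. Cox7a1 (2.15 to 3.88) missed the threshold without adult replicate 1.

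Regulators of mitochondrial biogenesis rose in 12 of 21 cases and fell in 1 (median 2.71). Esrra, the receptor ERR alpha (chromosome 19, 6910977 to 6921813), had 8.48 and 6.23 CPM at e13.5 and 206 and 162 CPM in adults (log2 FC 4.65 ± 0.53, adjusted p = 0.000372). Perm1, a muscle coactivator partner of the ERR pathway, had 1.15 and 2.58 CPM at e13.5 and 431 and 418 CPM in adults (log2 FC 7.81 ± 0.78, adjusted p = 0.000271). Ppard and Rxrg encode nuclear receptors of fatty acid and retinoid ligands. Ppard had 1.01 and 0.723 CPM at e13.5 and 32.7 and 30.4 CPM in adults (log2 FC 5.18 ± 0.56, adjusted p = 0.000334). Rxrg had 2.12 and 1.03 CPM at e13.5 and 56.99 and 60.8 CPM in adults (log2 FC 5.23 ± 0.58, adjusted p = 0.000353). Mfn2, a mitochondrial fusion protein, rose (log2 FC 3.40 ± 0.89, adjusted p = 0.0147), though its embryonic libraries differed, at 31.1 and 158 CPM. The offset for length gave 12 rose and 1 fell. Nrf1, the nuclear respiratory factor, fell from 35.95 and 27.9 to 11.8 and 12.7 CPM (log2 FC -1.38 ± 0.41, adjusted p = 0.0253). The ERR response element TNAAGGTCA, searched on both strands, was in 0 of the 31 promoters of the fatty acid list and in 1.28% of all 32851 promoters of the table, in windows from 250 bases before to 50 after the start, which says only that these letters are not in those 31 windows. Nrf1 (-1.57 to -1.05) missed the threshold without e13.5 replicate 1, adult replicate 1 or adult replicate 2.

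Glycolytic genes split by isoform. Of 30 tested, 8 rose and 9 fell (median -0.58). Slc2a1, the widespread glucose transporter GLUT1, had 532 and 271 CPM at e13.5 and 19.1 and 21.2 CPM in adults (log2 FC -4.32 ± 0.57, adjusted p = 0.000625). Slc2a4, the insulin-regulated GLUT4, had 36.4 and 18.3 CPM at e13.5 and 473 and 569 CPM in adults (log2 FC 4.25 ± 0.55, adjusted p = 0.00057). The 2 transporters crossed over, each without overlap between the ages. Slc16a3, a lactate exporter, had 184 and 148 CPM at e13.5 and 1.80 and 1.997 CPM in adults (log2 FC -6.45 ± 0.53, adjusted p = 0.000213). The glycolytic enzymes Gapdh (log2 FC -2.34 ± 0.54, adjusted p = 0.00851), Pgam1 (log2 FC -3.86 ± 0.54, adjusted p = 0.000832), Eno1 (log2 FC -3.28 ± 0.62, adjusted p = 0.00347), Pfkp (log2 FC -1.86 ± 0.53, adjusted p = 0.0208) and Aldoc (log2 FC -6.25 ± 0.73, adjusted p = 0.000517) fell. Pfkm, the muscle phosphofructokinase (187 and 112 CPM at e13.5 and 1161 and 1075 CPM in adults; log2 FC 2.90 ± 0.48, adjusted p = 0.00182), and Hk2, the insulin-responsive hexokinase (9.49 and 49.3 CPM at e13.5 and 432 and 407 CPM in adults; log2 FC 3.84 ± 0.72, adjusted p = 0.00325), rose, as did Eno3, muscle enolase (log2 FC 1.93 ± 0.68, adjusted p = 0.0481), and Tigar, which lowers the glycolytic activator fructose 2,6-bisphosphate (log2 FC 3.60 ± 0.46, adjusted p = 0.00053). Hk1, Aldoa and Pgam2 did not pass, with -0.36 ± 0.42, 0.25 ± 0.56 and -0.04 ± 0.60. With length as an offset 9 rose and 9 fell, while without adult replicate 1, and likewise without replicate 2, 6 rose and 5 fell. Gapdh (-2.73 to -1.92) missed the threshold without adult replicate 1 or adult replicate 2. Pfkp (-3.02 to -1.44) missed the threshold without e13.5 replicate 1, adult replicate 1 or adult replicate 2. Eno3 (1.40 to 2.97) missed the threshold without e13.5 replicate 2, adult replicate 1 or adult replicate 2.

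Creatine, ketone and branched-chain metabolism gave 9 risen and 4 fallen of 20 (median 1.40). Ckm, muscle creatine kinase, had 250.4 and 164 CPM at e13.5 and 2803 and 3028 CPM in adults (log2 FC 3.82 ± 0.67, adjusted p = 0.0023). Ckb, the brain form, had 272 and 182 CPM at e13.5 and 54.4 and 47.7 CPM in adults (log2 FC -2.15 ± 0.51, adjusted p = 0.00928). Slc6a8, the creatine transporter, rose from 4.98 and 4.17 to 203 and 215 CPM (log2 FC 5.51 ± 0.47, adjusted p = 0.000213), whereas Gamt and Gatm, which make creatine, fell (log2 FC -3.14 ± 0.55, adjusted p = 0.00244; log2 FC -2.24 ± 0.58, adjusted p = 0.0141). The importer thus rose while both synthetic enzymes fell. Mb, myoglobin, had 423 and 267 CPM at e13.5 and 11050 and 10710 CPM in adults (log2 FC 4.98 ± 0.70, adjusted p = 0.000837). Bdh1, of ketone body use, rose (log2 FC 3.75 ± 0.52, adjusted p = 0.000783), Ampd3, an AMP deaminase, rose (log2 FC 3.98 ± 0.56, adjusted p = 0.000837), and Bcat1, the cytosolic branched-chain transaminase, fell (log2 FC -3.81 ± 0.72, adjusted p = 0.00345). The adenine nucleotide carriers Slc25a4 and Slc25a5 did not pass, with 1.36 ± 0.62 and -1.35 ± 0.59. When length was an offset, 13 rose and 4 fell. Ckb (-2.40 to -1.70) and Gatm (-2.58 to -1.68) missed the threshold without adult replicate 1 or adult replicate 2.

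Cell division genes fell almost without exception. Of 31 mitotic genes 30 fell and 0 rose (median -5.23), and of 37 genes of G1/S and DNA replication 32 fell and 0 rose (median -3.61). The promoters of 2 fallen genes of each list are shown because they hold the motifs through which the DREAM and E2F complexes are known to act, CHR (TTTGAA) and CCAAT in the mitotic promoters and E2F (TTTNGCGC) in the replication promoters, with every match on either strand in capitals. The windows run from 250 bases before to 50 bases after the start, from RefSeq on GRCm38.p6: Prc1 (chr7:80294201-80294500, plus strand), Plk1 (chr7:122159185-122159484, plus strand), Mcm6 (chr1:128359656-128359955, minus strand) and Mcm7 (chr5:138171834-138172133, minus strand), each printed 5′ to 3′ on the gene's strand.
Prc1: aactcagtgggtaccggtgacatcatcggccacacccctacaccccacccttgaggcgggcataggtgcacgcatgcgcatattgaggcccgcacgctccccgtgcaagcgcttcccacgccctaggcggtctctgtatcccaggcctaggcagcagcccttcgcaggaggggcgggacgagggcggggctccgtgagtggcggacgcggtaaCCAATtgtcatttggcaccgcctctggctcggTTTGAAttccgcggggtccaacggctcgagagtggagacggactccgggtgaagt
Plk1: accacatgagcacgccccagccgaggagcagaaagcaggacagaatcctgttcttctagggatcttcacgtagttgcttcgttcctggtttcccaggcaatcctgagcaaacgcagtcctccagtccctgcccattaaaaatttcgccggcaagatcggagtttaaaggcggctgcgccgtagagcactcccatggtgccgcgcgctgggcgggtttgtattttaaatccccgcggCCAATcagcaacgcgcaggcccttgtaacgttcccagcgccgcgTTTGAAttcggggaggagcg
Mcm6: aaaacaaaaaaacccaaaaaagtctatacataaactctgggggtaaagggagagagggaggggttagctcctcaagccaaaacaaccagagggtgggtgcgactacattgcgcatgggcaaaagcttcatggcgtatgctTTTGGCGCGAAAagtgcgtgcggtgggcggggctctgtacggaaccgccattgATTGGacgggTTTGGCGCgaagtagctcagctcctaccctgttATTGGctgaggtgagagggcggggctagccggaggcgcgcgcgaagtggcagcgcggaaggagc
Mcm7: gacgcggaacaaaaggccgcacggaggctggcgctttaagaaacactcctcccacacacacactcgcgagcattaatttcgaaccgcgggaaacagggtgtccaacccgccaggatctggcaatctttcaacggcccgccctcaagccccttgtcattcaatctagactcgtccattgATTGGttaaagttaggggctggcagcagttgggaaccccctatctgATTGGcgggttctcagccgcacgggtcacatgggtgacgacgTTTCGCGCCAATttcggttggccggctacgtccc

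Prc1, which bundles the spindle midzone, had 104 and 81.8 CPM at e13.5 and 2.91 and 3.17 CPM in adults (log2 FC -4.93 ± 0.45, adjusted p = 0.000229). Plk1, a mitotic kinase, had 123 and 58.6 CPM at e13.5 and 0.699 and 0.620 CPM in adults (log2 FC -7.09 ± 0.70, adjusted p = 0.000265). Mcm6 and Mcm7 encode subunits of the replicative helicase. Mcm6 had 223 and 169 CPM at e13.5 and 9.43 and 9.71 CPM in adults (log2 FC -4.35 ± 0.54, adjusted p = 0.000501). Mcm7 had 206 and 136 CPM at e13.5 and 10.2 and 10.5 CPM in adults (log2 FC -4.04 ± 0.52, adjusted p = 0.000551). None of the 4 overlapped between the ages, as in 6461 of all 6463 called genes, and the adult libraries lay close to each other. TTTGAA occurred in 74.1% of the 27 promoters of the mitotic list against 17.9% of all 32851 promoters of that length, and CCAAT in 81.5% against 37.4%. TTTNGCGC occurred in 29.4% of the 34 promoters of the replication list against 1.38% of all. Over the promoters of genes lower in adults the shares were 14.5% for TTTGAA, 2.91% for TTTNGCGC and 40.5% for CCAAT. For genes higher in adults they were 10.3%, 1.45% and 35.0%, and for tested genes not called 12.1%, 2.19% and 36.9%. The share over all promoters also includes genes that were not tested. Matches overlap in the Mcm6 window, where TTTNGCGC runs on both strands, and in the Mcm7 window, where TTTNGCGC and CCAAT share a base. A match is a description of letters in these windows, and the list members were chosen for their known role in the cell cycle.

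Among other mitotic genes, Aurkb, the kinase of the chromosomal passenger complex, had 48.2 and 31.7 CPM at e13.5 and 0.815 and 0.895 CPM in adults (log2 FC -5.54 ± 0.54, adjusted p = 0.000252). Kif20a, a kinesin of cytokinesis, had 129 and 84.2 CPM at e13.5 and 2.62 and 2.34 CPM in adults (log2 FC -5.42 ± 0.51, adjusted p = 0.000248). Nusap1, a spindle protein, had 46.5 and 44.97 CPM at e13.5 and 1.46 and 0.964 CPM in adults (log2 FC -5.23 ± 0.49, adjusted p = 0.000251). Cenpa and Ube2c fell as well, the centromeric histone from 208 and 115 to 20.5 and 30.3 CPM (log2 FC -2.67 ± 0.52, adjusted p = 0.00398) and the anaphase ubiquitin enzyme from 285 and 150 to 1.80 and 0.276 CPM (log2 FC -7.68 ± 0.96, adjusted p = 0.00051). Of replication genes, Cdc6, which loads the helicase, had 32.2 and 23.4 CPM at e13.5 and 0.757 and 1.10 CPM in adults (log2 FC -4.90 ± 0.60, adjusted p = 0.000459), and Tyms and Rrm1 supply deoxynucleotides. Tyms had 52.9 and 40.9 CPM at e13.5 and 2.15 and 2.34 CPM in adults (log2 FC -4.38 ± 0.47, adjusted p = 0.00032). Rrm1 had 212 and 176 CPM at e13.5 and 17.9 and 19.6 CPM in adults (log2 FC -3.37 ± 0.42, adjusted p = 0.000495). E2f8, an atypical E2F repressor, fell (log2 FC -4.69 ± 0.56, adjusted p = 0.000422). Of the D cyclins, which drive entry into the cycle, Ccnd2 went from 468 and 349.8 to 119 and 123 CPM (log2 FC -1.76 ± 0.45, adjusted p = 0.0137) and Ccnd3 from 604 and 381 to 62.8 and 53.1 CPM (log2 FC -3.09 ± 0.52, adjusted p = 0.00194). With the length offset 0 rose and 31 fell in the mitotic list and 0 rose and 34 fell in the other, and with any WT library left out at least 27 and 26 fell. Cenpa (-3.01 to -2.04) missed the threshold without adult replicate 1. Ccnd2 (-2.70 to -1.39) missed the threshold without e13.5 replicate 1, adult replicate 1 or adult replicate 2.

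Inhibitors of the cycle had no common direction, with 3 risen and 4 fallen of 15. Rb1, the retinoblastoma protein that holds E2F factors, rose from 0.830 and 2.51 to 21.9 and 20.4 CPM (log2 FC 3.64 ± 0.62, adjusted p = 0.00211). Cdkn2c, an inhibitor of CDK4 and CDK6, rose (1.38 and 2.41 CPM at e13.5 and 9.90 and 8.75 CPM in adults; log2 FC 2.29 ± 0.53, adjusted p = 0.00847) while its relative Cdkn2d fell (92.5 and 51.2 CPM at e13.5 and 12.6 and 13.9 CPM in adults; log2 FC -2.44 ± 0.53, adjusted p = 0.00658). Cdkn1a, the p21 inhibitor, fell (log2 FC -2.41 ± 0.59, adjusted p = 0.0111), as did Meis1, a homeobox regulator of cardiomyocyte cycle exit (log2 FC -1.53 ± 0.46, adjusted p = 0.0253). Of the stress-induced Gadd45 genes Gadd45a rose (log2 FC 2.12 ± 0.52, adjusted p = 0.0109) and Gadd45g fell (log2 FC -2.69 ± 0.47, adjusted p = 0.00233). Btg2, an antiproliferative gene, had 124 and 97.4 CPM at e13.5 and 119.6 and 98.3 CPM in adults and did not pass (log2 FC -0.02 ± 0.41, 95% interval -0.93 to 0.88). Without adult replicate 1 this list had 1 risen and 1 fallen, without adult replicate 2, 2 and 1, and without e13.5 replicate 1, 3 and 7. The offset for length gave 5 rose and 6 fell. Cdkn2c (2.09 to 2.79) missed the threshold without adult replicate 1. Cdkn2d (-2.78 to -1.63), Cdkn1a (-2.70 to -1.73) and Gadd45a (1.97 to 2.86) missed the threshold without adult replicate 1 or adult replicate 2. Meis1 (-2.38 to -1.14) missed the threshold without e13.5 replicate 2, adult replicate 1 or adult replicate 2.

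Fetal growth genes and oncofetal RNA-binding genes fell in 18 of 23 cases and rose in 0 (median -3.88). Igf2, the fetal growth factor (chromosome 7, 142650766 to 142666816), had 1660 and 1132 CPM at e13.5 and 22.8 and 18.5 CPM in adults (log2 FC -6.08 ± 0.71, adjusted p = 0.000405). Its neighbour H19, an imprinted noncoding RNA, had 922 and 695 CPM at e13.5 and 8.38 and 8.27 CPM in adults (log2 FC -6.60 ± 0.67, adjusted p = 0.000278). Mest, another imprinted gene, had 2646 and 2048 CPM at e13.5 and 12.6 and 9.92 CPM in adults (log2 FC -7.70 ± 0.87, adjusted p = 0.000358). In all 3 the embryonic libraries lay far above the adults. Igf2bp3, the partner of Igf2bp1, had 61.9 and 68.8 CPM at e13.5 and 0.175 and 0.138 CPM in adults (log2 FC -8.64 ± 0.62, adjusted p = 0.000169). Myc, the growth transcription factor, had 95.3 and 109.6 CPM at e13.5 and 1.69 and 1.86 CPM in adults (log2 FC -5.85 ± 0.47, adjusted p = 0.0002). Given the offset for length, 0 rose and 19 fell.

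Cardiac transcription factors moved both ways, 11 up and 9 down of 35 (median 0.36). Hand1 and Isl1, factors of early heart fields and the outflow tract, had 23.9 and 15.3 and 6.59 and 6.06 CPM at e13.5 and no count in adults (at least 200.5-fold lower, adjusted p = 0.000537; at least 66.4-fold lower, adjusted p = 0.00129). Tbx5 had 123 and 55.2 CPM at e13.5 and 18.6 and 14.4 CPM in adults (log2 FC -2.43 ± 0.52, adjusted p = 0.00611). In contrast Hand2 rose from 10.97 and 6.16 to 90.6 and 72.9 CPM (log2 FC 3.25 ± 0.49, adjusted p = 0.00108), so the 2 Hand genes parted. Tead1, the DNA partner of YAP, had 9.77 and 20.1 CPM at e13.5 and 197 and 198 CPM in adults (log2 FC 3.72 ± 0.54, adjusted p = 0.000911). Srf, the serum response factor, had 14.4 and 9.37 CPM at e13.5 and 123 and 104 CPM in adults (log2 FC 3.25 ± 0.48, adjusted p = 0.00104). Irx1, an Iroquois factor of the ventricular septum, rose from 0.230 and 0.241 to 6.46 and 9.92 CPM (log2 FC 5.08 ± 0.68, adjusted p = 0.000649), and Tbx2, known as a repressor of chamber genes, from 0.0922 and 0.585 to 8.96 and 7.44 CPM (log2 FC 4.52 ± 1.14, adjusted p = 0.0126). Mef2a and the muscle methyltransferase gene Smyd1 did not pass (0.74 ± 0.68 and 1.16 ± 0.46). Without e13.5 replicate 2, 16 rose and 7 fell, and without adult replicate 1 or 2, 4 fell. Length as an offset gave 13 rose and 11 fell. Tbx5 (-2.88 to -1.60) missed the threshold without adult replicate 2.

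Developmental signalling genes fell in 19 of 36 cases and rose in 2 (median -1.80). Dkk3, a secreted Dickkopf family member, had 256 and 141 CPM at e13.5 and 1.86 and 0.482 CPM in adults (log2 FC -7.38 ± 0.74, adjusted p = 0.000273). Lef1, the nuclear effector of Wnt signalling, had 7.005 and 18.6 CPM at e13.5 and 0.0582 and 0 CPM in adults (ratio of scaled counts, e13.5 over adult, 433, 95% counting interval 77.5 to 17120, adjusted p = 0.00081). Bmp5, a BMP ligand, had 11.9 and 15.1 CPM at e13.5 and 0.349 and 0.620 CPM in adults (log2 FC -4.79 ± 0.65, adjusted p = 0.000693). Tgfb2, a TGF beta ligand, had 68.2 and 122 CPM at e13.5 and 5.24 and 4.68 CPM in adults (log2 FC -4.26 ± 0.54, adjusted p = 0.000538). The Hippo pathway targets Ccn1 and Ccn2 fell, from 1090 and 613 to 156 and 133 CPM (log2 FC -2.56 ± 0.50, adjusted p = 0.0039) and from 648 and 559 to 70.2 and 61.6 CPM (log2 FC -3.19 ± 0.54, adjusted p = 0.00199). Those that rose were Yap1 itself, the pathway's coactivator (11.2 and 15.9 CPM at e13.5 and 92.8 and 91.9 CPM in adults; log2 FC 2.77 ± 0.44, adjusted p = 0.00142), and Tgfb1 (0.737 and 4.17 CPM at e13.5 and 21.5 and 15.9 CPM in adults; log2 FC 2.92 ± 0.82, adjusted p = 0.0199). Yap1 and its targets Ccn1 and Ccn2 thus moved in opposite directions. With the length offset 2 rose and 22 fell, without e13.5 replicate 2, 6 rose and 18 fell, and without adult replicate 2, 12 fell. Ccn1 (-2.90 to -1.86) missed the threshold without adult replicate 2. Tgfb1 (2.30 to 4.67) missed the threshold without adult replicate 1.

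Hormone receptors and their targets rose in 18 of 28 cases and fell in 3 (median 3.09). Klf15 and Klf9 are transcription factors induced by glucocorticoids. Klf15 had 0.507 and 1.27 CPM at e13.5 and 76.9 and 102 CPM in adults (log2 FC 6.62 ± 0.64, adjusted p = 0.000252). Klf9 had 2.30 and 2.20 CPM at e13.5 and 131 and 131 CPM in adults (log2 FC 5.86 ± 0.52, adjusted p = 0.000215). Both were low in each embryonic library and high in each adult one. Of adrenergic receptors, Adra1a had 0.0461 and 0.0689 CPM at e13.5 and 33.8 and 30.6 CPM in adults (ratio of scaled counts, adult over e13.5, 547, 95% counting interval 187 to 2659, adjusted p = 0.000347). Adrb1, the main beta receptor of the heart, had 0.184 and 0.241 CPM at e13.5 and 14.4 and 18.5 CPM in adults (log2 FC 6.21 ± 0.59, adjusted p = 0.000252). Pik3r1, the regulatory subunit of PI3 kinase, rose (log2 FC 3.25 ± 0.58, adjusted p = 0.0026), as did Ppp1r3c, which targets a phosphatase to glycogen (log2 FC 2.29 ± 0.52, adjusted p = 0.00786). Igf1 fell from 25.6 and 72.2 to 6.17 and 4.06 CPM (log2 FC -3.25 ± 0.59, adjusted p = 0.00268). The deiodinases Dio2 and Dio3, which activate and inactivate thyroid hormone, were at most 1.41 CPM in any WT library. Length as an offset gave 19 rose and 2 fell.

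Splicing regulators of muscle gave 7 risen and 6 fallen of 23 (median 0.46). Among the risen were Rbfox1 (2.17 and 1.31 CPM at e13.5 and 35.4 and 41.7 CPM in adults; log2 FC 4.47 ± 0.50, adjusted p = 0.000358), Rbpms (19.96 and 16.1 CPM at e13.5 and 129 and 126 CPM in adults; log2 FC 2.82 ± 0.47, adjusted p = 0.00181), Rbm24 (31.2 and 22.8 CPM at e13.5 and 154 and 186 CPM in adults; log2 FC 2.65 ± 0.45, adjusted p = 0.00208) and Qk (24.8 and 51.9 CPM at e13.5 and 243 and 221 CPM in adults; log2 FC 2.59 ± 0.52, adjusted p = 0.00434). Among the fallen, Ptbp1, the repressor of muscle exons, had 268 and 261 CPM at e13.5 and 48.03 and 37.1 CPM in adults (log2 FC -2.64 ± 0.48, adjusted p = 0.00286). Srsf3 had 446 and 351 CPM at e13.5 and 80.3 and 87.2 CPM in adults (log2 FC -2.25 ± 0.43, adjusted p = 0.00366). Tra2b had 247 and 175 CPM at e13.5 and 50.6 and 53.3 CPM in adults (log2 FC -2.02 ± 0.44, adjusted p = 0.00663). Hnrnpa1 had 432 and 488 CPM at e13.5 and 139 and 104 CPM in adults (log2 FC -1.92 ± 0.42, adjusted p = 0.00688). In none of these 8 did the ages overlap, which held for 6461 of all 6463 called genes. Without adult replicate 1, and likewise without replicate 2, 5 rose and 1 fell. The offset for length gave 8 rose and 7 fell. Ptbp1 (-2.83 to -2.37) missed the threshold without adult replicate 2. Srsf3 (-2.43 to -1.93), Tra2b (-2.26 to -1.61) and Hnrnpa1 (-2.13 to -1.63) missed the threshold without adult replicate 1 or adult replicate 2.

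Protein turnover genes rose in 13 of 23 cases and fell in 2 (median 1.72). Asb14, Asb15 and Asb18 belong to a muscle-enriched family of ubiquitin ligase adaptors. Asb14 had 0.230 and 0.207 CPM at e13.5 and 88.4 and 125 CPM in adults (log2 FC 8.90 ± 0.70, adjusted p = 0.000187). Asb15 had 0.0461 and 0.379 CPM at e13.5 and 78.8 and 79.3 CPM in adults (log2 FC 8.41 ± 0.86, adjusted p = 0.000278). Asb18 had 0.553 and 0.516 CPM at e13.5 and 18.4 and 16.2 CPM in adults (log2 FC 5.0 ± 0.57, adjusted p = 0.000371). Those that fell were the polyubiquitin gene Ubb (3183 and 1731 CPM at e13.5 and 528 and 459.9 CPM in adults; log2 FC -2.32 ± 0.56, adjusted p = 0.0109) and the small heat shock gene Hspb1 (1236 and 745 CPM at e13.5 and 383 and 303 CPM in adults; log2 FC -1.53 ± 0.46, adjusted p = 0.0259), of which Hspb1 did not pass with the length offset. Length as an offset gave 14 rose and 1 fell. Ubb (-2.67 to -1.53) and Hspb1 (-1.83 to -0.61) missed the threshold without e13.5 replicate 1, adult replicate 1 or adult replicate 2.

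Cytoplasmic ribosomal protein genes fell in 35 of 51 cases and none rose (median -1.64). Rpl5 had 118 and 74.5 CPM at e13.5 and 8.38 and 7.44 CPM in adults (log2 FC -3.60 ± 0.49, adjusted p = 0.000684). Rpl27 had 160.4 and 106 CPM at e13.5 and 8.21 and 6.34 CPM in adults (log2 FC -4.19 ± 0.47, adjusted p = 0.000358). Rps13 had 213 and 168 CPM at e13.5 and 20.4 and 30.9 CPM in adults (log2 FC -2.90 ± 0.43, adjusted p = 0.00109), all of them parts of the ribosome's subunits. Rplp0, of the ribosomal stalk, had 2341 and 1258 CPM at e13.5 and 679.7 and 618 CPM in adults and did not pass (log2 FC -1.47 ± 0.54, adjusted p = 0.0538). These transcripts are short too, with a median of 1151 bases, and summed to 27970 and 17720 CPM at e13.5 and 8620 and 6825 CPM in adults. Under the length offset 0 rose and 22 fell (median -1.002). Without e13.5 replicate 1, 16 fell, and without adult replicate 1 or 2, 14 and 9 fell. The direction of the list's median was the same in each, lowest without e13.5 replicate 2, at -1.91.

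Genes known to respond to load and stress, many of which are fetal genes re-expressed in disease, rose in 3 of 21 cases and fell in 9 (median -1.65). Nppa, the atrial natriuretic peptide (chromosome 4, 148000722 to 148002079), had 6947 and 1825 CPM at e13.5 and 33.6 and 27.8 CPM in adults (log2 FC -7.16 ± 1.23, adjusted p = 0.00211) and shares 61.5% of its exon bases with another gene. Atf3, a stress transcription factor, had 499.9 and 206 CPM at e13.5 and 16.8 and 11.8 CPM in adults (log2 FC -4.63 ± 0.64, adjusted p = 0.000744). Acta1, skeletal actin, did not pass (419 and 143 CPM at e13.5 and 318 and 149.9 CPM in adults; log2 FC -0.27 ± 0.68, adjusted p = 0.779). The inducible chaperone gene Hspa1b had 6.68 and 5.51 CPM at e13.5 and 216 and 24.4 CPM in adults (log2 FC 4.30 ± 0.99, adjusted p = 0.00848) with the adult libraries far apart, and the ages did not overlap. Cst6, a cystatin, rose from 0.461 and 0.138 to 3.08 and 2.69 CPM (log2 FC 3.27 ± 0.84, adjusted p = 0.0139). The list had 3 rose and 7 fell with length as an offset. Hspa1b (2.003 to 5.17) missed the threshold without adult replicate 1. Cst6 (2.65 to 4.46) missed the threshold without e13.5 replicate 2, adult replicate 1 or adult replicate 2.

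Fibrillar matrix genes moved mostly down and basement membrane genes up. Of 32 genes of fibrillar collagen and interstitial matrix 15 fell and 3 rose (median -2.12), and of 30 genes of the basement membrane and costamere 14 rose and 0 fell (median 1.64). Eln, elastin, had 866 and 1731 CPM at e13.5 and 16.9 and 18.04 CPM in adults (log2 FC -6.22 ± 0.92, adjusted p = 0.00107). Fbn2, the fetal fibrillin, had 34.8 and 175 CPM at e13.5 and 0.233 and 0.482 CPM in adults (log2 FC -8.19 ± 0.99, adjusted p = 0.000451). Fbln5, which assembles elastic fibres, had 332 and 362 CPM at e13.5 and 14.9 and 8.47 CPM in adults (log2 FC -4.89 ± 0.57, adjusted p = 0.000407). Hapln1, which links hyaluronan to proteoglycans of the early heart jelly, had 9.68 and 40.8 CPM at e13.5 and 0.175 and 0.0689 CPM in adults (log2 FC -7.59 ± 1.16, adjusted p = 0.00124). Sparc (log2 FC -2.10 ± 0.57, adjusted p = 0.0179) and Postn (log2 FC -3.67 ± 0.79, adjusted p = 0.00642), matricellular proteins, fell. Col1a1 had 188 and 1191 CPM at e13.5 and 64.7 and 30.6 CPM in adults (log2 FC -3.86 ± 1.30, adjusted p = 0.0409). Col3a1 had 91.1 and 1283 CPM at e13.5 and 141 and 73.6 CPM in adults (log2 FC -2.68 ± 1.21, adjusted p = 0.104). The embryonic libraries differed in both, and e13.5 replicate 2 held the higher level. Timp4, a metalloproteinase inhibitor abundant in the heart, had 0.553 and 0.310 CPM at e13.5 and 51.1 and 43.5 CPM in adults (log2 FC 6.78 ± 0.65, adjusted p = 0.000252), and Col15a1 (log2 FC 3.43 ± 0.89, adjusted p = 0.0144) and Col8a1 (log2 FC 2.53 ± 0.56, adjusted p = 0.0071) rose. Among genes that fix the cell to its basement membrane, Itga7, the laminin-binding integrin of muscle, had 2.26 and 3.72 CPM at e13.5 and 226 and 215 CPM in adults (log2 FC 6.20 ± 0.91, adjusted p = 0.00101). Lama2, laminin alpha 2, had 11.2 and 28.3 CPM at e13.5 and 196 and 133 CPM in adults (log2 FC 3.06 ± 0.55, adjusted p = 0.00273). Hspg2, perlecan, had 64.4 and 230.4 CPM at e13.5 and 1115 and 725 CPM in adults (log2 FC 2.64 ± 0.65, adjusted p = 0.0116). Itga9 (log2 FC 3.91 ± 0.45, adjusted p = 0.000394) and the sarcoglycan gene Sgcb (log2 FC 2.42 ± 0.43, adjusted p = 0.00239) rose as well, and Col4a1 did not pass (log2 FC 0.08 ± 0.76, adjusted p = 0.944). Fibrillar genes that fell numbered 11 without e13.5 replicate 2, 8 without adult replicate 1 and 5 without adult replicate 2. With length as an offset 3 rose and 17 fell among the fibrillar genes and 13 rose and 1 fell among those of the basement membrane. Fibroblast markers, which share Col1a1, Col3a1 and Postn with this list, summed to 1555 and 4135 CPM at e13.5 and 1738 and 994 CPM in adults, and their part in the matrix values was not tested. Sparc (-2.45 to -1.48) missed the threshold without e13.5 replicate 1, adult replicate 1 or adult replicate 2. Postn (-4.15 to -3.06) missed the threshold without adult replicate 2. Col1a1 (-4.51 to -1.97) missed the threshold without e13.5 replicate 2, adult replicate 1 or adult replicate 2. Col15a1 (2.80 to 5.26), Col8a1 (1.93 to 2.88) and Hspg2 (1.76 to 3.85) missed the threshold without adult replicate 1.

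Markers of other cell types, and of atrial cardiomyocytes, moved with age in part. Of 14 erythroid genes 12 fell and none rose, and Hba-a1, an adult globin, had 10800 and 5586 CPM at e13.5 and 3.14 and 20.7 CPM in adults (log2 FC -9.42 ± 1.60, adjusted p = 0.00202). Of 12 atrial genes 8 fell and 1 rose, and the list summed to 18150 and 4874 CPM at e13.5 and 113 and 89.9 CPM in adults, most in e13.5 replicate 1. The isolation of atrial or ventricular tissue is not given in the labels. For the atrial genes named above, among them Nppa, Sln and Dkk3, atrial content and age therefore cannot be told apart. Of 10 epicardial genes 5 fell, among them the keratins Krt8 (57.2 and 46.3 CPM at e13.5 and 0.990 and 1.24 CPM in adults; log2 FC -5.53 ± 0.67, adjusted p = 0.000451) and Krt19 (109.9 and 41.1 CPM at e13.5 and 1.28 and 3.03 CPM in adults; log2 FC -5.13 ± 0.93, adjusted p = 0.00279), the uroplakin Upk3b (log2 FC -2.57 ± 0.74, adjusted p = 0.022) and Aldh1a2, which makes retinoic acid (log2 FC -2.88 ± 0.63, adjusted p = 0.0068). Valve and cushion genes fell in 5 of 10 cases and rose in 1, which was Tbx2 (log2 FC 4.52 ± 1.14, adjusted p = 0.0126). Among the fallen, Sox9 stood at 21.4 and 61.6 CPM at e13.5 and 1.34 and 0.964 CPM in adults (log2 FC -5.16 ± 0.94, adjusted p = 0.00285). Prrx2 had 3.87 and 2.55 CPM at e13.5 and 0.0582 and 0 CPM in adults (ratio of scaled counts, e13.5 over adult, 98.7, 95% counting interval 17.5 to 3923, adjusted p = 0.00365). Snai1 had 11.2 and 10.3 CPM at e13.5 and 1.46 and 0.827 CPM in adults (log2 FC -3.23 ± 0.62, adjusted p = 0.00375). Msx2 had 4.24 and 4.61 CPM at e13.5 and 0.291 and 0.689 CPM in adults (log2 FC -3.18 ± 0.74, adjusted p = 0.00918). Of 17 skeletal muscle genes 4 were at 0 in all 4 WT libraries, among them the regulators Myf5, Myf6 and Pax7. Of the 8 tested, 6 fell and 1, Ckm, rose. The structural genes Mylpf (log2 FC -4.60 ± 0.91, adjusted p = 0.00409) and Myh8 (ratio of scaled counts, e13.5 over adult, 49.4, 95% counting interval 8.61 to 1974, adjusted p = 0.0137) were among the fallen. Upk3b (-3.06 to -1.61) and Myh8 (-7.999 to -4.42) missed the threshold without e13.5 replicate 1, adult replicate 1 or adult replicate 2. Aldh1a2 (-3.46 to -1.71) and Snai1 (-3.69 to -2.52) missed the threshold without adult replicate 2. Msx2 (-3.88 to -2.65) missed the threshold without adult replicate 1.

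Smooth muscle genes parted: the contractile genes Acta2 (1697 and 822 CPM at e13.5 and 106 and 77.7 CPM in adults; log2 FC -3.78 ± 0.64, adjusted p = 0.002), Tagln (167 and 127 CPM at e13.5 and 8.73 and 8.68 CPM in adults; log2 FC -4.07 ± 0.43, adjusted p = 0.00032) and Cnn1 (482 and 204 CPM at e13.5 and 0.291 and 0.413 CPM in adults; log2 FC -9.91 ± 1.02, adjusted p = 0.000278), which embryonic cardiomyocytes are also known to use, fell. The mural cell genes Rgs5 (19.9 and 66.3 CPM at e13.5 and 497 and 333 CPM in adults; log2 FC 3.27 ± 0.75, adjusted p = 0.00848), Notch3 (4.01 and 15.01 CPM at e13.5 and 79.3 and 50.1 CPM in adults; log2 FC 2.76 ± 0.75, adjusted p = 0.0176) and Higd1b (0 and 0 CPM at e13.5 and 5.01 and 2.96 CPM in adults; at least 68.8-fold higher, adjusted p = 0.00142) rose, as did Myh11, smooth muscle myosin (log2 FC 2.09 ± 0.72, adjusted p = 0.0447). Endothelial genes rose in 4 of 17 cases and fell in 1, with Aqp1, a water channel, at 72.8 and 54.8 CPM at e13.5 and 574 and 438 CPM in adults (log2 FC 2.99 ± 0.45, adjusted p = 0.00115). Vwf had 8.99 and 21.8 CPM at e13.5 and 132 and 129 CPM in adults (log2 FC 3.08 ± 0.66, adjusted p = 0.00595). Cldn5 had 47.8 and 30.2 CPM at e13.5 and 16.5 and 11.7 CPM in adults (log2 FC -1.46 ± 0.52, adjusted p = 0.048, a call lost with the length offset). Eng did not pass (log2 FC -0.47 ± 0.47, adjusted p = 0.455). Macrophage and leukocyte genes rose in 7 of 16 cases and fell in 1, with Mrc1 at 2.67 and 4.75 CPM at e13.5 and 44.01 and 22.2 CPM in adults (log2 FC 3.15 ± 0.59, adjusted p = 0.00314). C1qa had 5.48 and 3.92 CPM at e13.5 and 37.4 and 24.1 CPM in adults (log2 FC 2.71 ± 0.60, adjusted p = 0.00702). Adgre1 had 2.03 and 2.41 CPM at e13.5 and 15.2 and 8.20 CPM in adults (log2 FC 2.39 ± 0.55, adjusted p = 0.00806). Fibroblast genes rose in 2 of 15 cases and fell in 4: Pi16 (log2 FC 3.19 ± 0.47, adjusted p = 0.00102) and Thy1 (log2 FC 2.76 ± 0.85, adjusted p = 0.0296) rose, Fbln1 (log2 FC -1.85 ± 0.47, adjusted p = 0.0131) and Tcf21 (log2 FC -2.21 ± 0.69, adjusted p = 0.0306, a call lost with the length offset) fell. Alb, a liver gene, was at 0 in adult replicate 1 and at 38.8 CPM in adult replicate 2. Without adult replicate 1, 2 macrophage genes rose in place of 7. Notch3 (2.12 to 4.03), C1qa (2.36 to 3.58) and Adgre1 (1.89 to 2.79) missed the threshold without adult replicate 1. Myh11 (1.44 to 2.83), Cldn5 (-1.74 to -0.68), Thy1 (2.15 to 4.52), Fbln1 (-2.05 to -1.47) and Tcf21 (-2.59 to -1.51) missed the threshold without e13.5 replicate 1, adult replicate 1 or adult replicate 2.

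**Figure D5:**
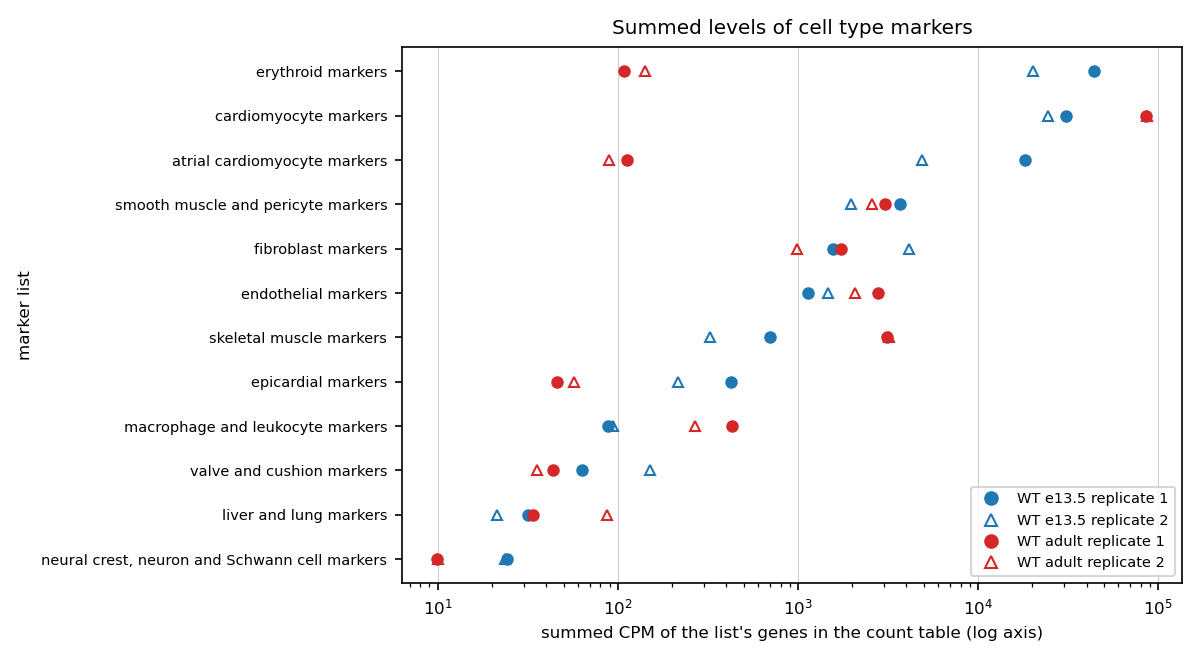
Summed CPM on a log axis (x axis) of 12 marker lists (y axis) in each WT library. Erythroid and atrial sums are highest in e13.5 replicate 1, at 43950 and 18150 CPM, and lowest in adults, at no more than 142 CPM, while cardiomyocyte markers lie at 86030 and 86090 CPM in both adults.

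The age effect in WT was set beside that in the KO libraries. The contrasts share no library, but all 8 libraries set the spread used in both, so their calls are not independent. Deviations of same-numbered WT and KO libraries also correlated, at 0.552 at e13.5 and 0.307 in adults, which the reported fit left out. Of all 16623 genes tested, 6883 were called in KO. Of the 6463 WT calls 5570 (86.2%) also passed in KO in the same direction, which is 80.9% of the 6883 calls in KO, and 3 passed in the opposite direction. By edgeR's test of the difference itself 0 of 16623 genes passed for an age effect that differed between the genotypes. At an unadjusted p under 0.05 were 265 (1.59%), and the smallest adjusted p was 0.274. A gene that did not pass is not shown to have the same age effect in both genotypes. The DESeq2 Wald test gave 7 and edgeR without the filter on low counts 30. With a replicate block at each age edgeR gave 1, and 718 genes had an unadjusted p under 0.05. The 3 genes of smallest p, named after their values were seen, shared the adjusted p of 0.274 and so did not pass. Lrat, which esterifies retinol, had 0.507 and 0.379 CPM at e13.5 and 6.99 and 8.13 CPM in adults in WT, against 1.25 and 3.56 CPM and 0 and 0.0663 CPM in KO. Pttg1, securin, had 66.9 and 27.5 CPM at e13.5 and 47.6 and 57.0 CPM in adults in WT, against 176 and 73.1 CPM and 2.11 and 1.39 CPM in KO. Mocs1, of molybdenum cofactor synthesis, had 11.7 and 11.2 CPM at e13.5 and 17.8 and 15.3 CPM in adults in WT, against 0.50 and 0.633 CPM and 20.03 and 16.2 CPM in KO. In the KO libraries the fetal troponin gene Tnni1 had 3066 and 1183 CPM at e13.5 and 0.0659 and 0.0663 CPM in adults. The alpha myosin gene Myh6 had 1224 and 778 CPM at e13.5 and 25160 and 37270 CPM in adults there, and the pump gene Atp2a2 had 122 and 81.5 CPM at e13.5 and 16770 and 18960 CPM in adults.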

How the data were processed

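RNA was measured in 8 libraries made with Smart-seq2 chemistry from 200 ng of total RNA each, per the labels' protocols. The deposited table holds whole-number estimated counts per gene from the authors' RSEM run against mm10, per the submitters' processing notes. Versions and strand settings are not given there, so genes that overlap cannot be told apart, and counts were used as deposited. Of 51826 identifiers 51633 had a symbol in GENCODE vM21 (GRCm38), which also gave coordinates and lengths. All 8 columns were mapped by their names.

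Genes were filtered with filterByExpr, scaled by TMM and fitted with the edgeR 4.0.16 quasi-likelihood test (limma 3.58.1, R 4.3.3) over the 4 groups of genotype and age, all 8 libraries sharing 1 estimate of the spread (4 residual and 5.74 prior degrees of freedom, common dispersion 0.212). The contrast was WT adult minus WT e13.5, called at a Benjamini-Hochberg adjusted p under 0.05. The difference of the age effect between genotypes was an interaction in the same fit. CPM use TMM-scaled library sizes. Total counts ran from 17159009 to 20395600 in the WT libraries. Against a group at 0 the fold bound uses a floor of 3 counts over the group's 2 libraries, and floors and 95% counting intervals cover counting error only. The scripts were tested on simulated data.

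Alternatives were other scalings, filters, DESeq2 1.42.0, replicate blocks, each WT library left out and, chosen after seeing the data, an offset for transcript length. Named genes are the 12 largest rises and falls with non-overlapping ages and a mean of at least 20 CPM at the higher age, both members of each paralog pair, and of each list up to 4 risen and 4 fallen genes by smallest p and the 2 of highest level. The genes whose promoters are printed are, in each of 2 lists, the 2 changed ones of smallest p that hold the list's motif. Promoters on chromosome 18 were passed over in this choice. The comparison, the lists and the pairs were chosen with earlier results of these data known. Near-identical copies were searched with BLAST 2.17.0, at 95% identity over at least 50% of a transcript. Promoters are from RefSeq, GRCm38.p6, in which 11796 tested genes had an entry. Proteins were not analysed here. Some genes that the naming rule selects are not reported here.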

Additional observations from a re-analysis of the deposited data

How the results depend on the processing

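In each of the 16 alternatives, no gene called both there and in the reported fit changed direction. Calls that were lost were not checked for direction, apart from the named genes. Higher and lower counts were 3076 and 3436 with median-of-ratios scaling, 2833 and 3973 with upper quartile scaling, which moved the median of all genes from -0.26 to -0.39, and 3352 and 3655 with the DESeq2 Wald test. Tested against a log2 fold change of 1, 2104 were higher and 2238 lower. With 1 WT library left out the higher genes numbered 1734 to 3613 and the lower ones 1157 to 3352. The share of calls that were higher was 45.7% with all libraries, 58.0% without adult replicate 1 and 61.4% without adult replicate 2, where the lone adult library is assumed to vary like the other groups. Without e13.5 replicate 1, 4355 of the 6463 calls were shared, and without adult replicate 1, 2966.

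The replicate numbers did not pair the WT libraries: deviations of same-numbered libraries correlated at -0.0321 between the WT ages, 0.552 between the genotypes at e13.5 and 0.307 in adults. A replicate block gave 3572 higher and 4042 lower genes, and a replicate block at each age, which pairs the genotypes, gave 4622 and 5147 and 1 gene whose age effect differed between genotypes. With these 2 blocks the nuclear respiratory chain list had 10 and 27 risen genes of 55 in place of 3, and with the block at each age 25 genes of the tricarboxylic acid list rose in place of 11, 20 of the titin list in place of 12 and 12 of the intercalated disc list in place of 5. The count of genes that passed the test for a differing age effect was 0 in the reported fit, 30 with no filter on low counts and 7 with DESeq2.

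Of 295 named genes 0 had a call that reversed. A change of sign was not counted as a reversal where a gene was called in neither fit. For example, the log2 FC of Col3a1 ran from -3.447 to 0.251 over the alternatives and that of Cox7a2 from -1.311 to 0.125. With the length offset 7 named genes lost and 16 gained a call. Among those that lost it were Cox6a1, Rpl4, Tnni2, Hspb1, Tcf21 and Cldn5. The calls on Cox6a2 and Eno3 were also lost under other scalings, and that on Col1a1 with the replicate block. The cause was not tested. The planned change of pseudocount did not apply to a count model. With 3 counts in 1 library worth 0.103 to 0.207 CPM, genes at 0 in 1 age have a bound in place of a fold change.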

Other observations

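Clock genes, which set daily rhythms of transcription, rose in 8 of 18 cases and fell in 1 (median 1.54). Dbp, Tef and Hlf are output factors of the PAR bZIP family. Dbp had 2.58 and 2.10 CPM at e13.5 and 104 and 112 CPM in adults (log2 FC 5.53 ± 0.72, adjusted p = 0.000562). Tef had 5.21 and 12.8 CPM at e13.5 and 286 and 316 CPM in adults (log2 FC 5.06 ± 0.67, adjusted p = 0.000602). Hlf had 1.38 and 1.86 CPM at e13.5 and 38.01 and 39.4 CPM in adults (log2 FC 4.57 ± 0.55, adjusted p = 0.000444). Nr1d2, a repressor, had 2.996 and 29.2 CPM at e13.5 and 138 and 149 CPM in adults (log2 FC 3.15 ± 0.93, adjusted p = 0.0248). Arntl, which encodes the core activator BMAL1, was the one that fell (12.5 and 7.71 CPM at e13.5 and 0.699 and 1.31 CPM in adults; log2 FC -3.33 ± 0.69, adjusted p = 0.00527). The hour of collection is not given in the labels, so time of day and age cannot be told apart here. With length as an offset 10 rose and 1 fell. Nr1d2 (2.43 to 5.60) missed the threshold without adult replicate 1 or adult replicate 2. Arntl (-3.82 to -2.80) missed the threshold without adult replicate 1.

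Antigen presentation and interferon genes rose in 17 of 22 cases and none fell (median 2.77). H2-K1, a class I heavy chain, had 24.6 and 20.1 CPM at e13.5 and 500.2 and 377 CPM in adults (log2 FC 4.29 ± 0.61, adjusted p = 0.000853). B2m, its light chain, had 122 and 101 CPM at e13.5 and 468 and 376 CPM in adults (log2 FC 1.92 ± 0.53, adjusted p = 0.0181). Irf7, the regulator of type I interferon genes, had 0.968 and 1.55 CPM at e13.5 and 44.6 and 34.4 CPM in adults (log2 FC 4.96 ± 0.63, adjusted p = 0.00053), and Ly6a and Ly6c1 encode surface proteins of endothelium and leukocytes. Ly6a had 0.599 and 0.379 CPM at e13.5 and 64.7 and 34.9 CPM in adults (log2 FC 6.67 ± 0.73, adjusted p = 0.000347). Ly6c1 had 0.599 and 0.930 CPM at e13.5 and 134 and 96.4 CPM in adults (log2 FC 7.21 ± 0.65, adjusted p = 0.000216). Macrophage and leukocyte markers summed to 88.02 and 94.6 CPM at e13.5 and 429 and 267 CPM in adults, and their part in these values was not tested. Without adult replicate 1, 11 of the list rose, and with length as an offset 20 rose and 0 fell. B2m (1.75 to 2.82) missed the threshold without e13.5 replicate 2, adult replicate 1 or adult replicate 2.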
